A study of Mus musculus with 12 samples.

Results

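The genes described here were the heparin-binding growth factors pleiotrophin (Ptn) and midkine (Mdk) and the 4 syndecans (Sdc1, Sdc2, Sdc3 and Sdc4), 6 of the 39179 genes in the count table, found by their symbols. They were chosen by their levels across these 12 libraries, with those values known, so the levels and the differences between cultures are given as a description, without a test. The cells were PSCs, pancreatic stellate cells of C57BL/6 mouse origin that had been immortalised with SV40 large T antigen, labelled with mCherry and kept as 1 clone. In minimal medium with little serum they were grown for 72 h alone (mono-PSCs), with PCCs (2W-PSCs), or with PCCs and MØs (3W-PSCs), with 4 libraries per culture and 12 in all. The total number of cells plated was the same in each culture. PSCs were then sorted as positive for mCherry and negative for EGFP and TagBFP. PCCs were mouse pancreatic cancer cells labelled with EGFP, carrying p48-Cre and a floxed p53 allele, and MØs were the RAW264.7 mouse macrophage line labelled with TagBFP.

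Pleiotrophin and midkine are small secreted proteins that bind heparan sulphate, the negatively charged sugar chains of cell-surface and matrix proteoglycans. Syndecans are transmembrane proteoglycans that carry such chains, present growth factors to signalling receptors, take part in adhesion and can be shed by proteases. Stellate cells are a source of the fibroblasts that lay down matrix around pancreatic tumours, and pleiotrophin made by stromal cells can reach receptors such as PTPRZ1, ALK, LRP1 and integrins on neighbouring cells.

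Counts came from the QuantSeq 3′ FWD kit, which yields about 1 fragment per transcript near its 3′ end, so that levels of different genes can be compared per transcript without a length correction. Levels are counts scaled to a common library size (CPM), with TMM factors. The library totals ranged from 4561817 to 8093368. The second 2W-PSC library stood apart, with a Spearman correlation to the other 2W-PSC libraries of 0.804 to 0.895, while every other pair within a culture reached 0.927 to 0.984. Of 10 stellate cell and fibroblast markers, 8 had over 10 counts in every library, whereas desmin (Des) and lumican (Lum) had at most 25 and 7 counts. The 10 markers summed to 4667 to 9101 (mono-PSCs), 8225 to 8434 (2W-PSCs) and 4985 to 6165 CPM (3W-PSCs), so that the 3W-PSC libraries lay below the 2W-PSC libraries and within the range of mono-PSCs, and their part in the levels below was not tested. The summed level of 10 epithelial markers ranged over 0.484 to 2.46 (mono-PSCs), 74.5 to 146 (2W-PSCs) and 50.3 to 88.6 CPM (3W-PSCs). Of these, Epcam, Cldn4, Cldn7 and Esrp1 were at 0 in 2W-PSCs and Cldn4 was at 0 in 3W-PSCs. The 10 macrophage markers summed to 1.60 to 7.44, 3.38 to 10.5 and 9.95 to 43.0 CPM, and Adgre1 was at 0 in every library. The sum of 43.0 CPM came from 3W-PSC library 4, and the next highest was 15.8 CPM in 3W-PSC library 1. In such bulk libraries, fewer cells of a type and less RNA per cell cannot be told apart.

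Ptn, the growth factor of the set, was abundant in mono-PSCs and 2W-PSCs and far lower in 3W-PSCs. Its gene lies on the minus strand of GRCm38 at chr6:36714929-36810220, and none of its exonic bases overlap another gene. In the mono-PSC libraries its level was 1257, 2406, 1873 and 1810.1 CPM. In the 2W-PSC libraries it was 1026, 1675, 1235 and 1550.3 CPM. In the 3W-PSC libraries it was 83.1, 83.0, 112 and 131 CPM. All 4 3W-PSC libraries thus lay below all 8 others, while mono-PSC and 2W-PSC libraries overlapped. The mean was 1836.5 ± 469.8 in mono-PSCs, then 1372 ± 296 in 2W-PSCs, then 102 ± 23.6 in 3W-PSCs (CPM with SD over 4 libraries each). The log2 difference was -3.74 (SE 0.24) from 2W-PSCs to 3W-PSCs, or 13.4-fold lower, and -4.17 (SE 0.23) from mono-PSCs to 3W-PSCs, or 18.0-fold lower. Between 2W-PSCs and mono-PSCs it was -0.41 (SE 0.25), and -0.27 (SE 0.25) without mono-PSC library 2. Among all genes ranked by mean level, Ptn was number 34 in mono-PSCs, 54 in 2W-PSCs and 1718 in 3W-PSCs. The 3W-PSC libraries still held 626 to 1011 Ptn counts each, so that the transcript remained well measured there.

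Mdk, the only other member of the pleiotrophin family, was close to undetected in the same cells. Its gene lies at chr2:91929805-91932297 on the minus strand. The counts, not scaled, were 2, 1, 0 and 0 in the mono-PSC libraries, 0, 0, 1 and 0 in the 2W-PSC libraries and 9, 2, 0 and 0 in the 3W-PSC libraries. Every library but the first 3W-PSC library was below 3 counts, a floor that stood for 0.347 to 0.736 CPM depending on the library, and no fold is given. Mdk did not pass the filter on low counts in any comparison, and 5 of the 6 genes did in all 3 comparisons.

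**Figure D1:**
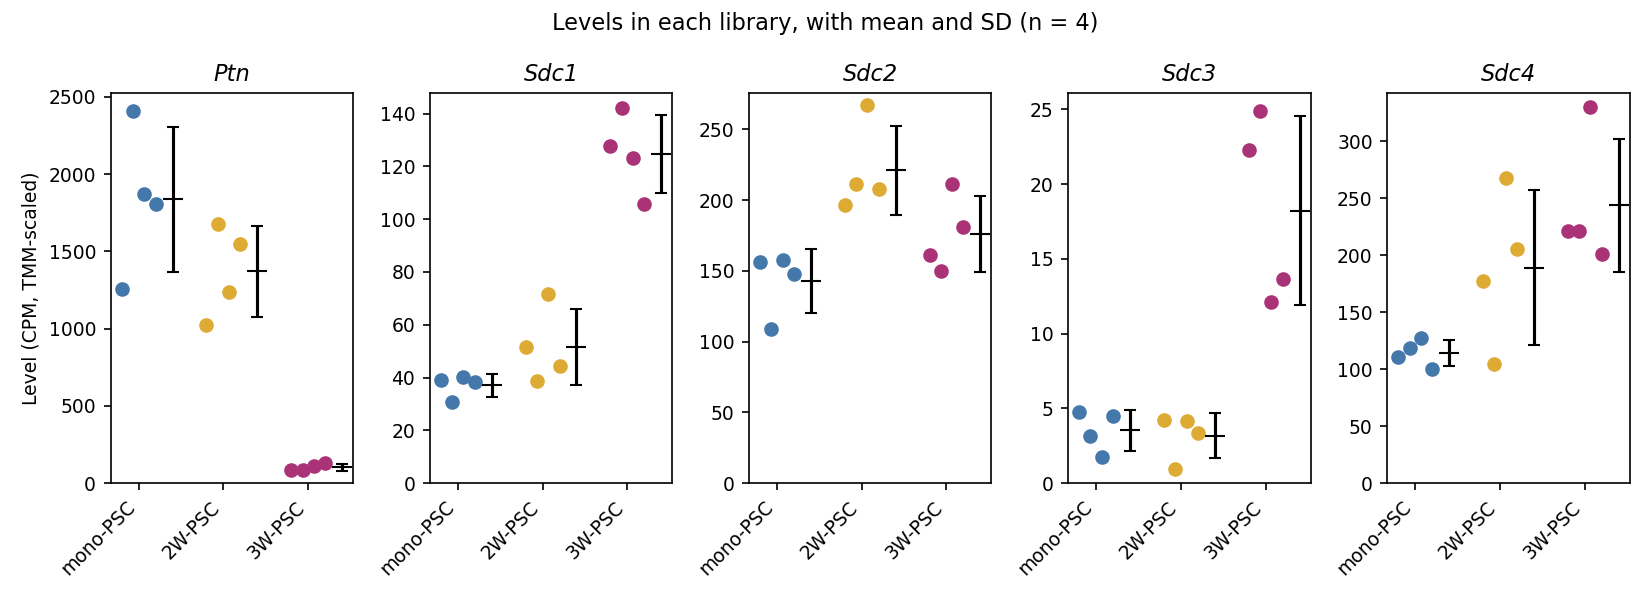
Level of Ptn and the 4 syndecans in each library, in CPM after TMM scaling, with 1 panel and 1 linear axis per gene. Points are libraries, the bar beside them is the mean with its SD (n = 4), and the 3W-PSC libraries of Ptn lie at 83.0 to 131 CPM, below all others, whereas those of Sdc1 and Sdc3 lie above all others.

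The syndecans share a short cytoplasmic end that binds PDZ proteins such as syntenin (Sdcbp), and the last 60 coding bases before the stop codon are printed to show how much of it the 4 genes share. They come from the GENCODE M21 transcripts on GRCm38, with the final 12 bases, which encode the shared end, in capitals.
Sdc1: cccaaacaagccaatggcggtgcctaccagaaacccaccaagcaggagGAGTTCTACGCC
Sdc2: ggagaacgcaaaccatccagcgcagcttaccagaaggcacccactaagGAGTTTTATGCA
Sdc3: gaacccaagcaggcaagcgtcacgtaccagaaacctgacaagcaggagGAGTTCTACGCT
Sdc4: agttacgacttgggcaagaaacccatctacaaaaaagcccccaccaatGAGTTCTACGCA
The ends were compared base by base back from the stop codon, without gaps. Over these final 12 bases, pairs of syndecans were identical at 9 to 11 positions, against 12 to 26 of the 48 bases before them. The second count misses stretches shared at a shifted position, such as taccagaa in Sdc1 and Sdc2, so it does not show where likeness ends. Among windows of 75 bases within the final 500 bases of the transcripts, none of Sdc2 or Sdc4 occurred in another gene. For Sdc1 0.26% did, in Gm14724, and for Sdc3 8.69% did, in Gm26716, which together with Gm12970 overlaps 463 exonic bases of Sdc3 on the opposite strand. All 3 of these other genes had 0 counts in every library.

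Sdc1, the syndecan typical of epithelia and plasma cells, was highest in 3W-PSCs. Its gene lies at chr12:8771323-8793715 on the plus strand. Its level was 39.0, 30.7, 40.1 and 38.4 CPM in the mono-PSC libraries. It was 51.5, 38.76, 71.6 and 44.5 CPM in the 2W-PSC libraries and 128, 142, 123 and 106 CPM in the 3W-PSC libraries. All 3W-PSC libraries lay above all others, and the 2W-PSC libraries overlapped those of mono-PSCs. Against 2W-PSCs, the level in 3W-PSCs was 2.42-fold higher, with a log2 difference of 1.27 (SE 0.21), and against mono-PSCs it was 3.35-fold higher, with a log2 difference of 1.74 (SE 0.16). Between 2W-PSCs and mono-PSCs the log2 difference was 0.49 (SE 0.23), and 0.29 (SE 0.22) without 2W-PSC library 3. Beside this, the mean summed level of the epithelial markers was 101 (2W-PSCs) and 66.7 CPM (3W-PSCs), and that of the macrophage markers was 6.36 and 20.7 CPM. Their part in the level of Sdc1 was not tested.

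Sdc3, the syndecan best known from neurons and as a partner of pleiotrophin, was the rarest of the 4 and was also highest in 3W-PSCs. Its gene lies at chr4:130792537-130826319 on the plus strand. Its level was 4.74, 3.13, 1.78 and 4.48 CPM in the mono-PSC libraries. It was 4.22, 0.981, 4.14 and 3.37 CPM in the 2W-PSC libraries and 22.3, 24.9, 12.1 and 13.6 CPM in the 3W-PSC libraries. The lowest 3W-PSC library was above the highest of the others, but the counts were small, 10 to 37 in mono-PSCs and 4 to 30 in 2W-PSCs. The level in 3W-PSCs was 5.57-fold that in 2W-PSCs, with a log2 difference of 2.48 (SE 0.40), and 5.07-fold that in mono-PSCs, with a log2 difference of 2.34 (SE 0.34). Between 2W-PSCs and mono-PSCs it was -0.12 (SE 0.53), which turned to 0.14 without the second 2W-PSC library, where only 4 counts were found, and ranged from -0.34 to 0.14 with 1 library left out, above 0 also without mono-PSC library 1 or 4.

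Sdc4, a widespread syndecan of focal adhesions, had a higher level in 3W-PSCs than mono-PSCs, with 2W-PSCs between them. Its gene lies at chr2:164424247-164443887 on the minus strand. Its level was 110, 119, 128 and 101 CPM in the mono-PSC libraries. It was 178, 105, 268 and 206 CPM in the 2W-PSC libraries and 222, 221, 330 and 201 CPM in the 3W-PSC libraries. The 3W-PSC libraries lay above every mono-PSC library and overlapped those of 2W-PSCs, and of the 2W-PSC libraries only the second fell within the range of mono-PSCs. The log2 difference was 1.09 (SE 0.17) between 3W-PSCs and mono-PSCs, or 2.12-fold. It was 0.74 (SE 0.26) between 2W-PSCs and mono-PSCs, and 0.93 (SE 0.19) without the second 2W-PSC library. Between 3W-PSCs and 2W-PSCs it was 0.37 (SE 0.27), and 0.17 (SE 0.19) without that library, 0.58 (SE 0.26) without 2W-PSC library 3 and 0.19 (SE 0.27) without 3W-PSC library 3. Epithelial markers were also higher in both co-cultures than in mono-PSCs, and their part in the level of Sdc4 was not tested.

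Sdc2, the syndecan most typical of fibroblasts and other mesenchymal cells, had its highest mean in 2W-PSCs. Its gene lies at chr15:32920723-33034935 on the plus strand. Its level was 156, 109, 157 and 148 CPM in the mono-PSC libraries. It was 197, 211, 267 and 208 CPM in the 2W-PSC libraries and 161, 149.9, 212 and 181 CPM in the 3W-PSC libraries. The 2W-PSC libraries lay above those of mono-PSCs, with a log2 difference of 0.65 (SE 0.20), and 3W-PSC libraries overlapped both other cultures. The log2 difference was -0.33 (SE 0.17) from 2W-PSCs to 3W-PSCs and 0.29 (SE 0.16) from mono-PSCs to 3W-PSCs, the last being 0.18 without mono-PSC library 2 and 0.19 without 3W-PSC library 3.

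**Figure D2:**
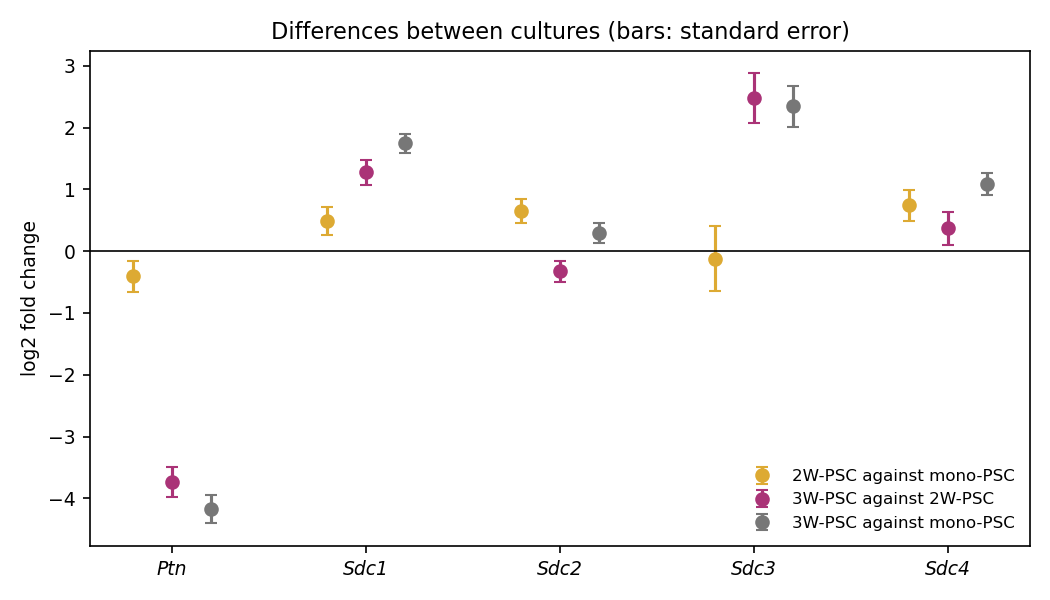
Log2 fold change of Ptn and the 4 syndecans in each of the 3 comparisons, with bars for the standard error from edgeR (4 libraries per culture). Ptn lies at -3.74 and -4.17 in the comparisons with 3W-PSCs, opposite in sign to Sdc1 and Sdc3, and the comparisons share libraries, so they are not independent.

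Counted over the 5 genes that passed the filter, 1 was higher in every 2W-PSC library than in any mono-PSC library and 4 overlapped, while of all tested genes 5.73% did not overlap in that comparison, 3.29% higher and 2.45% lower. In 3W-PSCs against 2W-PSCs, 2 were higher, 1 was lower and 2 overlapped, beside 21.3% of all genes not overlapping, 11.5% higher and 9.87% lower. In 3W-PSCs against mono-PSCs, 3 were higher, 1 was lower and 1 overlapped, beside 25.9% of all genes, 13.7% higher and 12.2% lower. As these values chose the genes, nothing is read from their counts against these shares. The log2 differences kept their sign under every alternative processing that was run apart from that of Sdc3 between 2W-PSCs and mono-PSCs.

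The order of the levels therefore differed between cultures. In mono-PSCs Ptn stood first, followed by Sdc2 at 143 ± 22.7 CPM and Sdc4 at 114 ± 11.6 CPM, whose libraries overlapped, then by Sdc1 at 37.0 ± 4.26 CPM and Sdc3 at 3.53 ± 1.37 CPM (SD, n = 4 each). In 2W-PSCs the order of the means was the same, with Sdc2 at 221 ± 31.6 CPM and Sdc4 at 189 ± 67.7 CPM overlapping again, Sdc1 at 51.6 ± 14.3 CPM and Sdc3 at 3.18 ± 1.51 CPM. In 3W-PSCs Sdc4 had the highest mean, 244 ± 58.6 CPM, and its libraries overlapped those of Sdc2, which had a mean of 176 CPM and a range of 149.9 to 212 CPM. Sdc1 came next at 125 ± 14.9 CPM and its libraries overlapped those of Ptn, while Sdc3 followed at 18.2 ± 6.31 CPM. Mdk was last in each culture.

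All syndecan transcripts together summed to 298 ± 27.95 in mono-PSCs, then 465 ± 107 in 2W-PSCs, then 563 ± 78.0 CPM in 3W-PSCs. There were 4.05 to 9.19 Ptn counts per syndecan count in the mono-PSC libraries, 2.02 to 4.71 in the 2W-PSC libraries and 0.154 to 0.262 in the 3W-PSC libraries. Counts of the ligand thus exceeded those of the syndecans in all 8 mono-PSC and 2W-PSC libraries and were below them in all 4 3W-PSC libraries. Within the syndecans, Sdc2 gave 47.8 ± 4.18% of the counts in mono-PSCs, 48.5 ± 7.32% in 2W-PSCs and 31.4 ± 3.47% in 3W-PSCs. Sdc1 gave 12.4 ± 0.590%, 11.1 ± 1.05% and 22.4 ± 3.56%, and Sdc3 gave 1.20 ± 0.466%, 0.666 ± 0.292% and 3.33 ± 1.31%. Sdc4 gave 38.6 ± 4.88%, 39.8 ± 7.05% and 42.9 ± 3.98%, with overlapping ranges in the 3 cultures. The ranges of mono-PSCs and 2W-PSCs overlapped for every syndecan, and in 3W-PSCs the shares of Sdc1 and Sdc3 were higher and that of Sdc2 lower than in any other library.

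**Figure D3:**
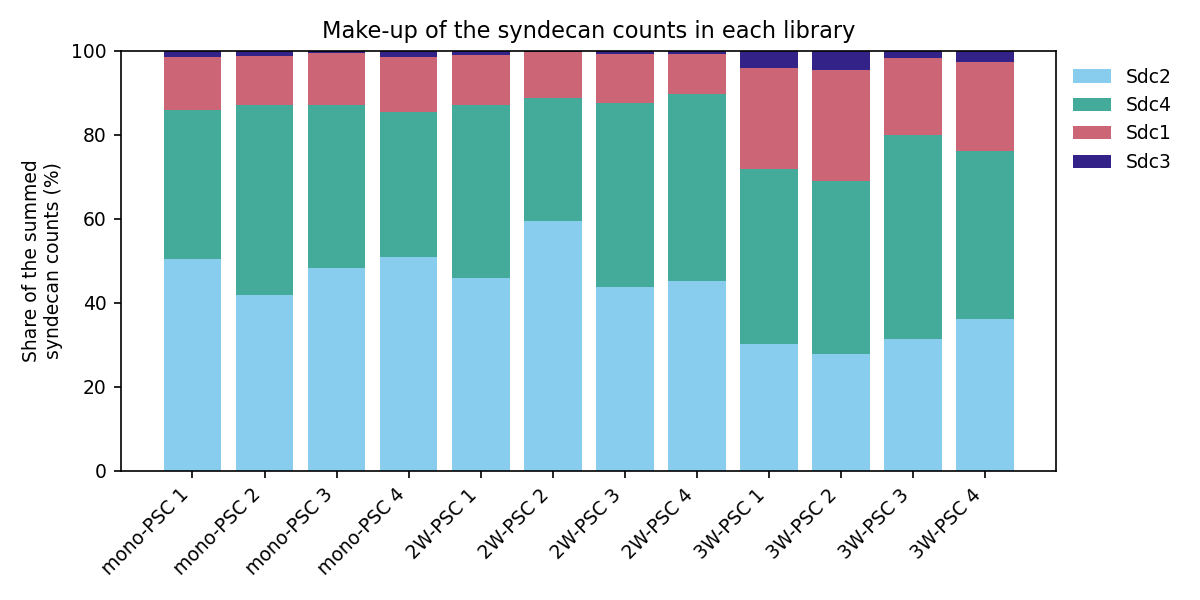
Share of each syndecan in the summed syndecan counts of each library, in percent, as stacked bars with 1 bar per library. The Sdc1 segment is 9.64 to 13.2% of the bar in mono-PSC and 2W-PSC libraries and 18.2 to 26.4% in 3W-PSC libraries.

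Across the 12 libraries, which share their cultures and so differ mainly by them, log2 CPM of Ptn ran opposite to that of Sdc1, with a Pearson r of -0.96, and to that of Sdc3, with -0.91. Sdc1 had r of 0.88 with Sdc3 and 0.81 with Sdc4, and Sdc2 had r of -0.06 with Ptn and 0.25 with Sdc1. Among 9736 genes with a mean of at least 5 CPM, the patterns most like that of Ptn were those of Sprr2k (r = 0.98), Wls, which carries Wnt ligands to the cell surface (0.98), and Arhgap5 (0.98). Those most like Sdc1 were Osmr, the receptor of oncostatin M (0.98), Tnfaip2 (0.97) and the zinc finger gene Zfp281 (0.97). Osmr was at 4.08 in mono-PSCs, then 7.80 in 2W-PSCs, then 59.7 CPM in 3W-PSCs on average. Nearest to Sdc3 were Cluh, Gng12 and Znrf1, with r of 0.98, 0.97 and 0.97. Nearest to Sdc4 were the growth hormone receptor Ghr (0.94), Irf5 (0.93) and S1pr1 (0.93), and nearest to Sdc2 were Ctla2b (0.94), the neurotrophin Bdnf (0.90) and the zinc transporter Slc39a10 (0.89). These are descriptions of 12 libraries from 3 cultures, without a test.

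RefSeq gave promoters, from 250 bases before to 50 bases after the transcription start on GRCm38.p6, for 4 of the 6 genes. They are those of Sdc1 (chr12:8771146-8771445, plus strand) and Sdc3 (chr4:130792287-130792586, plus strand), whose levels were higher in 3W-PSCs than in both other cultures, of Sdc4 (chr2:164443139-164443438, minus strand), which in 3W-PSCs exceeded mono-PSCs and overlapped 2W-PSCs, and of Ptn (chr6:36810130-36810429, minus strand), which was lower in 3W-PSCs than in both. All 4 are printed, with matches to the NFκB consensus in capitals.
Sdc1 promoter: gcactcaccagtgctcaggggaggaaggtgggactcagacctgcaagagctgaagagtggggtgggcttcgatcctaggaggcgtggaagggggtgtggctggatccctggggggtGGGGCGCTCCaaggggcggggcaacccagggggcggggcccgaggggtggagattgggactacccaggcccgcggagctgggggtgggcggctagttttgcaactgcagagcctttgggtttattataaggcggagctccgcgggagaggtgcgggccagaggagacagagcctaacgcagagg
Sdc3 promoter: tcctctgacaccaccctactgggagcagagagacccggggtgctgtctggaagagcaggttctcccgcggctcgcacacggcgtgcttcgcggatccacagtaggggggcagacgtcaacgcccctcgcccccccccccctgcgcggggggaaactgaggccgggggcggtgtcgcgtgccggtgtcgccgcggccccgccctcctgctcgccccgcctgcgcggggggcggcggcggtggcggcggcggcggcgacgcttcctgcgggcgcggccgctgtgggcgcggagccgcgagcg
Sdc4 promoter: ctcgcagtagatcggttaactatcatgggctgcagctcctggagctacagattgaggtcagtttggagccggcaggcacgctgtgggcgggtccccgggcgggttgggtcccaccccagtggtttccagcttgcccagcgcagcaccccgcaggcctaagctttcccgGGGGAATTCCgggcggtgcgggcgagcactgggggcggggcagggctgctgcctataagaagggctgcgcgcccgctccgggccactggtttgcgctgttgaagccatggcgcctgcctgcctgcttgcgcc
Ptn promoter: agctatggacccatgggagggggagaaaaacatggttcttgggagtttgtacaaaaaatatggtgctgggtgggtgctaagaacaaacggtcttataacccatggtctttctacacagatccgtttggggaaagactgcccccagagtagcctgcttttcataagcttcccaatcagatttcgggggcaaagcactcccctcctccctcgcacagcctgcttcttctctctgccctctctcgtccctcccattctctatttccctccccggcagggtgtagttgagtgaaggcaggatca
The promoters of Sdc1 and Sdc4 each held 1 match, starting 134 and 82 bases before the start site, and those of Ptn and Sdc3 held none. Among all 32851 promoters of that length, 8.46% held a match on either strand. A STAT motif (TTCNNNGAA), an AP-1 motif (TGANTCA), a TEAD motif (GGAATG) and the CArG box had no match in any of the 4 promoters, and 8.30%, 7.81%, 14.7% and 1.63% of all promoters held one. A match describes letters in a window and says nothing of binding in these cells.

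To place these genes among their partners, 81 further genes in 7 lists were followed, covering receptors, heparan sulphate synthesis and modification, other proteoglycans, sheddases, cytoplasmic partners and other heparin-binding ligands. They were tested with edgeR's quasi-likelihood test, and a gene was called at an adjusted p under 0.05 over all genes. The lists were chosen with earlier results of these data known. Nothing is therefore read, here or below, from their counts or medians against those of all genes. In 2W-PSCs against mono-PSCs 2 of 56 tested genes were called, both higher, beside 0.991% of all genes (0.839% higher and 0.152% lower), with a median log2 difference of 0.18 against 0.02 over all genes. In 3W-PSCs against 2W-PSCs 11 of 57 were higher and 4 lower, beside 10.7% of all genes called (5.73% higher and 4.95% lower), with medians of 0.23 and 0.00. In 3W-PSCs against mono-PSCs 25 of 57 were higher and 4 lower, beside 26.4% of all genes (13.4% higher and 13.0% lower), with medians of 0.43 and 0.01. These fits had no block. With the replicate number as a block, 4 genes rather than 2 were called between 2W-PSCs and mono-PSCs. Both genes of the main fit, Mmp3 and Sulf1, kept their calls there (edgeR adjusted p = 0.0257 and 0.0297). The summed epithelial and macrophage markers in 3W-PSCs likewise exceeded those of mono-PSCs, as given above, and their part in the pathway calls was not tested.

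**Figure D4:**
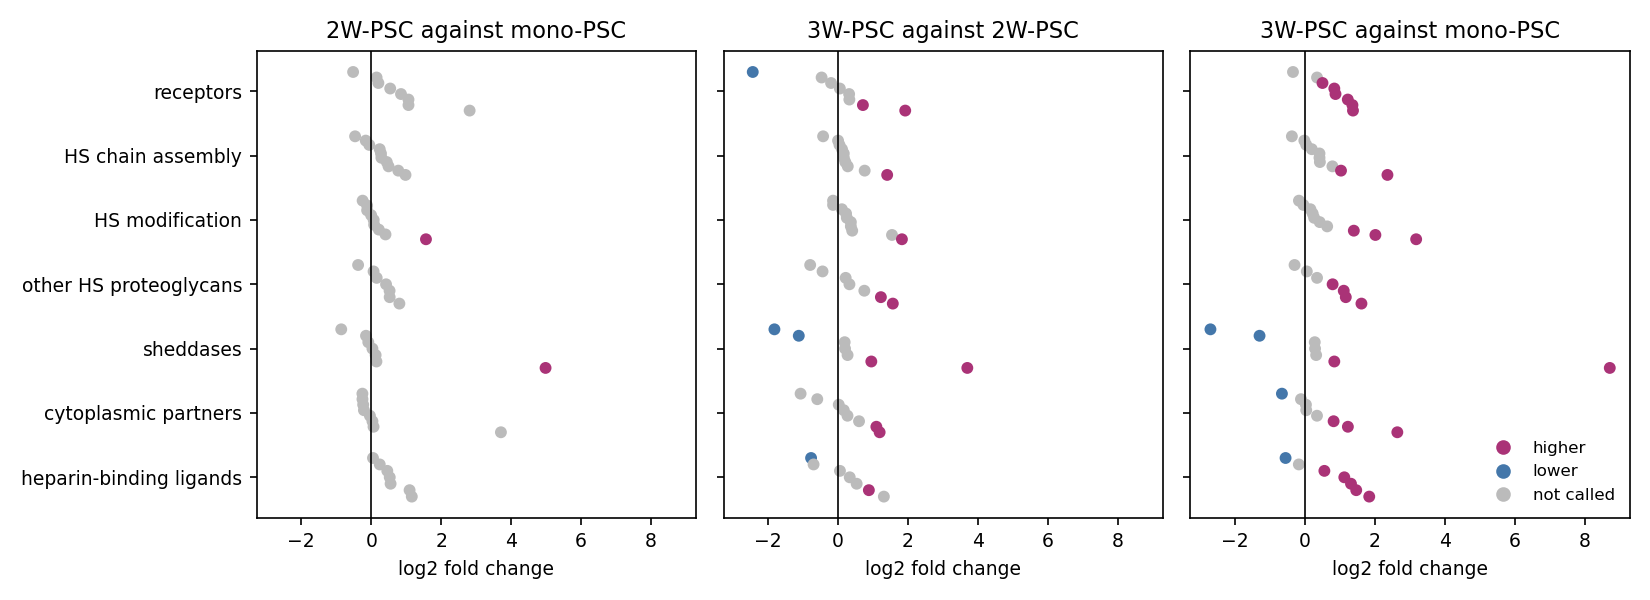
Log2 fold change of each tested pathway gene in the 3 comparisons, by list, with genes called higher or lower by edgeR in colour and the others in grey. In 3W-PSCs against mono-PSCs 25 of 57 genes lie among those called higher and 4 among those called lower.

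Of 12 receptors and binding partners of pleiotrophin and midkine, 8 were tested. The phosphatase receptor Ptprz1 never had more than 9 counts and the kinase receptor Alk had none in any library, so the main signalling receptors of pleiotrophin were at or near 0 in these PSCs. In 2W-PSCs against mono-PSCs edgeR called no receptor. Nrp1, a coreceptor named here after its values were seen, had an edgeR adjusted p of 0.106 in the main fit. It was called higher with the replicate block (log2 difference 1.08, edgeR adjusted p = 0.0194, 0.00611 to 0.336 over the alternatives). Lrp1, an endocytic receptor of both ligands, had 99.8 ± 54.3 in mono-PSCs, then 144 ± 16.6 in 2W-PSCs, then 235 ± 57.2 in 3W-PSCs (CPM with SD over 4 libraries each). It rose in 3W-PSCs against mono-PSCs (log2 difference 1.23, SE 0.30, edgeR adjusted p = 0.00538). Against 2W-PSCs its difference of 0.71 (SE 0.20, edgeR adjusted p = 0.0411) lost its call in 8 of 16 alternatives, which were the replicate block, the fit of all 12 libraries and those without 2W-PSC libraries 1, 3 or 4 or 3W-PSC libraries 2, 3 or 4 (adjusted p 0.0138 to 0.148 over all). The Notch receptor gene Notch2 rose from 12.3 ± 3.80 (2W-PSCs) to 46.8 ± 5.57 CPM (3W-PSCs) (log2 difference 1.92, SE 0.24, edgeR adjusted p = 0.000689). The integrin gene Itgb3 fell from 9.97 ± 5.95 to 1.80 ± 1.27 CPM between them (log2 difference -2.44, SE 0.54, edgeR adjusted p = 0.0166), a call lost without 3W-PSC library 1 or 2 (adjusted p 0.000199 to 0.0663 over all alternatives). Against mono-PSCs 6 receptors were higher in 3W-PSCs and 0 lower, beside 13.4% of all genes higher and 13.0% lower. Besides Lrp1 these were Notch2, with a log2 difference of 1.38 (SE 0.24, edgeR adjusted p = 0.000473), the integrin genes Itga6, with a log2 difference of 1.36 (SE 0.20, edgeR adjusted p = 8.34e-05), and Itgav, with 0.88 (SE 0.16, edgeR adjusted p = 0.000754), and Nrp1 and nucleolin (Ncl). The last pair was named after its values were seen and had log2 differences of 0.84 and 0.50. The call of Ncl was lost in 5 of 16 alternatives, those without mono-PSC library 4 or 3W-PSC libraries 1, 2 or 4 and the fit of all 12 libraries.

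Heparan sulphate is the part of syndecans that binds pleiotrophin, and its enzymes were followed in a list for assembly and a list for modification. Of 12 chain assembly genes 10 were tested. Ext1, a subunit of the polymerase that extends the chain, had 59.5 ± 14.2 in mono-PSCs, then 116 ± 41.5 in 2W-PSCs, then 307 ± 49.3 CPM in 3W-PSCs. It rose in 3W-PSCs against 2W-PSCs (log2 difference 1.41, SE 0.26, edgeR adjusted p = 0.00665) and against mono-PSCs (log2 difference 2.36, SE 0.19, edgeR adjusted p = 5.91e-08). Between 2W-PSCs and mono-PSCs the difference of 0.98 (SE 0.28) was not called (edgeR adjusted p = 0.174), but it was without the second 2W-PSC library (1.18, adjusted p = 0.00527, 0.00527 to 0.541 over the alternatives). Extl3, which starts heparan sulphate chains, was the only other assembly gene called, against mono-PSCs, with a log2 difference of 1.03 (SE 0.19, edgeR adjusted p = 0.000501). Calls thus covered 1 of 10 assembly genes in 3W-PSCs against 2W-PSCs, beside 10.7% of all genes. Against mono-PSCs they covered 2 of 10, beside 26.4% of all genes.

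Of 20 modification genes 9 or 10 were tested. In 2W-PSCs against mono-PSCs 1 of 9 was called, beside 0.991% of all genes. In 3W-PSCs 1 of 10 was called against 2W-PSCs, beside 10.7% of all genes, and 3 of 10 against mono-PSCs, beside 26.4%. Sulf1 and Sulf2 encode the extracellular sulphatases that remove 6-O-sulphate groups from heparan sulphate and so alter what it binds. Sulf1 had 18.2 ± 3.23 in mono-PSCs, then 53.4 ± 20.7 in 2W-PSCs, then 48.2 ± 11.6 CPM in 3W-PSCs. It rose in 2W-PSCs against mono-PSCs (log2 difference 1.57, SE 0.28, edgeR adjusted p = 0.0160), a call lost without mono-PSC libraries 2, 3 or 4 or 2W-PSC library 4 (adjusted p up to 0.0842), and in 3W-PSCs against mono-PSCs (log2 difference 1.40, SE 0.21, edgeR adjusted p = 9.38e-05). Sulf2 had 20.5 ± 11.2 in mono-PSCs, then 23.6 ± 5.78 in 2W-PSCs, then 83.7 ± 6.34 CPM in 3W-PSCs. It rose in 3W-PSCs against 2W-PSCs (log2 difference 1.83, SE 0.19, edgeR adjusted p = 0.000278) and against mono-PSCs (log2 difference 2.02, SE 0.28, edgeR adjusted p = 4.51e-05). The sulphotransferase gene Ndst3, named after its values were seen, was also higher against mono-PSCs, from 0.443 ± 0.309 to 4.19 ± 2.42 CPM (log2 difference 3.18, SE 0.67, edgeR adjusted p = 0.00183). With edgeR no modification gene was called lower in the main fits, but in 3W-PSCs against 2W-PSCs 1 was called lower with no filter on low counts and 1 with the DESeq2 Wald test.

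Of the 10 other heparan sulphate proteoglycans 7 were tested. Glypican-1 (Gpc1), the other cell-surface class, was called in no comparison and had 48.9 ± 3.39 in mono-PSCs, then 69.9 ± 41.4 in 2W-PSCs, then 40.1 ± 7.80 CPM in 3W-PSCs. Agrin (Agrn), a basement membrane proteoglycan, rose from 16.7 ± 4.27 (2W-PSCs) to 39.2 ± 9.10 CPM (3W-PSCs) (log2 difference 1.23, SE 0.25, edgeR adjusted p = 0.0109). Betaglycan (Tgfbr3), a TGFβ coreceptor, rose from 9.05 ± 5.40 to 27.2 ± 2.91 CPM (log2 difference 1.57, SE 0.43, edgeR adjusted p = 0.0417), a call lost under the replicate block and without 2W-PSC libraries 1 or 4 or any 1 of the 3W-PSC libraries (adjusted p up to 0.127). Against mono-PSCs these and 2 more were higher in 3W-PSCs, beside 13.4% of all genes. The added genes were glypican-4 (Gpc4), higher by 1.11, and perlecan (Hspg2), higher by 0.79 on the log2 scale. The call of Hspg2 was lost without mono-PSC library 3 and in the fit of all 12 libraries (edgeR adjusted p up to 0.0900).

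Of the 9 proteases and inhibitors that bear on syndecan shedding 7 were tested, and they included the largest differences of the 7 lists. Mmp3 (stromelysin-1) had 0 to 3 counts in the mono-PSC libraries and means of 5.93 ± 1.93 (2W-PSCs) and 76.5 ± 50.1 CPM (3W-PSCs), which were at least 11.8-fold higher and, for 3W-PSCs, at least 152-fold higher than a floor of 3 counts per mono-PSC library. It rose in each comparison (edgeR adjusted p = 0.00883 for 2W-PSCs against mono-PSCs, 0.00115 for 3W-PSCs against 2W-PSCs and 6.57e-08 for 3W-PSCs against mono-PSCs). Adam17, a membrane sheddase, rose from 40.2 ± 8.38 (2W-PSCs) to 77.8 ± 4.43 CPM (3W-PSCs) (log2 difference 0.95, SE 0.18, edgeR adjusted p = 0.00724). Timp3, an inhibitor of ADAM17 and of matrix metalloproteinases, fell from 1002 ± 308 to 460 ± 93.7 CPM (log2 difference -1.12, SE 0.24, edgeR adjusted p = 0.0131), a call lost without 3W-PSC library 1 or 2 (adjusted p up to 0.0598). Adamts1, a secreted protease, fell from 365 ± 132 to 103 ± 33.4 CPM (log2 difference -1.82, SE 0.32, edgeR adjusted p = 0.00517). Against mono-PSCs the same 4 genes were called, where 26.4% of all genes were called. Their log2 differences were 0.84 for Adam17, -1.30 for Timp3 and -2.70 for Adamts1 beside that of Mmp3.

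All 8 cytoplasmic partners were tested. In 3W-PSCs against 2W-PSCs 2 were called, both higher, beside 5.73% of all genes higher. Against mono-PSCs 3 were higher and 1 lower, beside 13.4% of all genes higher and 13.0% lower. Syntenin (Sdcbp), the PDZ protein that binds the shared end printed above, was called in no comparison, with 257 ± 59.8 in mono-PSCs, then 220 ± 118 in 2W-PSCs, then 266 ± 4.51 CPM in 3W-PSCs. Its second 2W-PSC library held 61.1 CPM, the lowest of the 12. Src, a tyrosine kinase, rose from 14.4 ± 4.01 (2W-PSCs) to 32.99 ± 2.83 CPM (3W-PSCs) (log2 difference 1.19, SE 0.22, edgeR adjusted p = 0.00746) and was also higher than in mono-PSCs. Tiam1, a Rac activator, rose from 11.1 ± 4.80 to 23.9 ± 1.53 CPM (log2 difference 1.10, SE 0.27, edgeR adjusted p = 0.0283), a call lost without 2W-PSC libraries 3 or 4 or any 1 of the 3W-PSC libraries (adjusted p up to 0.0892). Against mono-PSCs, Src, Tiam1 and Sdcbp2, the last named after its values were seen and at 2.20 ± 0.790 CPM in 3W-PSCs, were higher, and Gipc1 was lower by a log2 difference of -0.66. The call of Sdcbp2 was lost without mono-PSC libraries 3 or 4 or 3W-PSC library 2, and that of Gipc1 without mono-PSC libraries 2, 3 or 4 or 3W-PSC libraries 1, 2 or 4 and in the fit of all 12 libraries (edgeR adjusted p up to 0.0790 and 0.0950).

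Of 10 other heparin-binding ligands 7 were tested. Fgf7, a growth factor for epithelial cells, rose from 32.7 ± 9.21 (2W-PSCs) to 60.3 ± 9.43 CPM (3W-PSCs) (log2 difference 0.88, SE 0.22, edgeR adjusted p = 0.0280), a call lost under the replicate block and without 2W-PSC libraries 1 or 4 or 3W-PSC libraries 1, 2 or 3 (adjusted p up to 0.0926). The chemokine Cxcl12 fell from 596 ± 36.5 to 349 ± 14.6 CPM (log2 difference -0.77, SE 0.14, edgeR adjusted p = 0.00689). Against mono-PSCs 5 of the 7 rose, beside 13.4% of all genes. Fibronectin (Fn1) was at 317 ± 114 (mono-PSCs) and 697 ± 140.3 CPM (3W-PSCs) (log2 difference 1.13, SE 0.23, edgeR adjusted p = 0.00128). The EGF receptor ligand Hbegf differed by 1.47 (SE 0.21, edgeR adjusted p = 4.60e-05), Fgf7 by 1.32 (SE 0.20, edgeR adjusted p = 9.16e-05) and Hgf, the ligand of MET, by 1.84 (SE 0.50, edgeR adjusted p = 0.0116). Vegfa, named after its values were seen, differed by 0.56 (SE 0.20, edgeR adjusted p = 0.0461) and lost its call in 7 of 16 alternatives, among them those without mono-PSC libraries 2 or 4 or 3W-PSC libraries 1, 2 or 3 (adjusted p up to 0.141). Cxcl12, named for this comparison after its values were seen, was lower than in mono-PSCs by a log2 difference of -0.55 (SE 0.16, edgeR adjusted p = 0.0145), a call lost without mono-PSC library 2 (adjusted p up to 0.0510). In 2W-PSCs against mono-PSCs no ligand passed. Fn1, named for this comparison after its values were seen, had an edgeR adjusted p of 0.0782 in the main fit. It passed with the replicate block (log2 difference 1.16, edgeR adjusted p = 0.0194, 0.00320 to 0.287 over the alternatives).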

How the data were processed

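The deposited values were counts per gene for 12 libraries, made by the authors from QuantSeq 3′ FWD single-end reads that were trimmed, aligned to GRCm38 with STAR and counted with featureCounts on the Ensembl annotation. The paper speaks of normalised read counts, but the deposited counts were whole numbers with differing totals and were used as raw counts. The strand setting and molecular identifiers are not given in the sources used here, so counts may include PCR copies, and floors cover counting error only. No column was left out. The labels give no source for the replicates beyond separate samples of a culture, so p-values measure the spread between these samples.

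The genes, lists and comparisons were chosen with earlier results of these data known. Counts were scaled by TMM in edgeR 4.0.16 under R 4.3.3, filtered with filterByExpr and compared in pairs of cultures (8 libraries a fit, no block) with glmQLFit and glmQLFTest, with Benjamini-Hochberg adjustment across all genes tested. Standard errors are the log2 fold change divided by the root of the F statistic. CPM used TMM factors over the 12 libraries, and correlations used log2 CPM computed with 2 as prior count. Of each list, the called genes with the largest log2 change and a mean of at least 5 CPM, up to 4 per comparison, were named, plus Sdcbp, Ptprz1, Alk, Lrp1, Ext1, Sulf1, Sulf2 and Gpc1. Likeness named the 3 genes with the highest Pearson r per member. The motifs were chosen after the files had been seen. The tests were first tried on simulated counts.

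Alternatives were DESeq2 size factors, total counts without TMM, no filter, at least 10 counts in every library, all 12 libraries in 1 fit, the replicate number as a block, DESeq2 1.42.0, a fit without the most abundant gene (Gm26924) and mitochondrial rRNA genes, and each library left out in turn. Replicate numbers came from the sample titles. Deviations from the culture means of same-numbered mono-PSC and 2W-PSC libraries correlated at 0.145 to 0.456 in all 4 pairs. Pairs with different numbers ranged from -0.336 to 0.28, so the ranges overlapped and pairing was not established. The replicate block was therefore run as an alternative only. An item of the PCC genotype is not reported here.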

Additional observations from a re-analysis of the deposited data

Results flagged for a closer look

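Of 18 sets of 4 libraries, 1 per gene and culture, 2 held a library far from the other libraries of its culture, and chance alone flags about 1 in 20 such sets. Sdc4 was at 330 CPM in the third 3W-PSC library, against 201 to 222 CPM in the other 3W-PSC libraries, and without it the mean of 3W-PSCs was 215 CPM, still above the highest mono-PSC library at 128 CPM. Mdk was at 0.159 CPM in the third 2W-PSC library, which is a count of 1 where the other 2W-PSC libraries had 0.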

How the results depend on the processing

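The log2 differences of the 5 tested genes of the set moved by less than the spread between libraries under all alternatives run, and Sdc3 could not be fitted with at least 10 counts in every library in fits with 2W-PSCs. Counts of called genes moved more. Between 2W-PSCs and mono-PSCs, 111 genes and 2 pathway genes were called, against 177 and 7 with no filter, 57 and 1 when every library had to hold 10 counts, 262 and 8 with all 12 libraries in 1 fit, and 277 and 9 with the DESeq2 Wald test, and with the replicate block 4 pathway genes were called. With 1 library left out they ranged from 61 to 233 and from 1 to 8, highest without the second 2W-PSC library. They were 61 to 64 for all genes without mono-PSC libraries 3 or 4 or 2W-PSC libraries 1 or 4, and 1 for pathway genes without mono-PSC libraries 2, 3 or 4 or 2W-PSC library 4. Between 3W-PSCs and 2W-PSCs, 1230 genes and 15 pathway genes were called, and with 1 library left out 497 to 2107 and 9 to 21, lowest without the second 3W-PSC library and highest without the second 2W-PSC library, where all 15 were kept. Without 2W-PSC library 4 or any 1 of the 3W-PSC libraries the first count was 497 to 750. In that comparison and against mono-PSCs, same-numbered 3W-PSC libraries correlated at -0.0528 to 0.206 and -0.0276 to 0.191, over 0.1 in 1 of 4 pairs each. Pairing was not established there either. The block gave 752 genes and 12 pathway genes for 3W-PSCs against 2W-PSCs, and it changed no pathway call against mono-PSCs. Leaving out 1 library turned the sign of uncalled genes. In 2W-PSCs against mono-PSCs, Sulf2 ranged from -0.015 without mono-PSC library 3 to 0.55, and Sdcbp from -0.50 to 0.092 without 2W-PSC library 2. In 3W-PSCs against 2W-PSCs, Sdcbp ranged from -0.041 and Sulf1 to 0.15 without that library, with other ends at 0.55 and -0.29. In 3W-PSCs against mono-PSCs, Sdcbp ranged from -0.072 without mono-PSC library 2 to 0.15, and was also below 0 without library 4. The causes were not tested. Depth limited Mdk, Ptprz1 and Alk. Mdk and Ptprz1 had at most 9 counts in any library, and the absence of Alk cannot be told from a level under the floor. A missed call does not show an equal level. At an unadjusted p under 0.05, 12, 27 and 31 pathway genes passed in the 3 comparisons.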

Other observations

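Of 8 tested stellate cell and fibroblast markers, 1 was higher and 4 were lower in 3W-PSCs against 2W-PSCs, beside 5.73% of all genes higher and 4.95% lower. Their median log2 difference was -0.57 beside 0.00 over all genes. Pdgfra, a receptor of platelet-derived growth factor, rose from 14.4 (2W-PSCs) to 34.6 CPM (3W-PSCs) (log2 difference 1.26, SE 0.22, edgeR adjusted p = 0.00522), whereas the collagen gene Col1a1 fell from 3107 to 1729 CPM (log2 difference -0.84, SE 0.19, edgeR adjusted p = 0.0158). Col3a1, another collagen gene, fell from 455 to 136 CPM (log2 difference -1.74, SE 0.21, edgeR adjusted p = 0.000538). Decorin (Dcn), a chondroitin or dermatan sulphate proteoglycan, fell from 248 to 125 CPM (log2 difference -0.98, SE 0.24, edgeR adjusted p = 0.0262). Thy1, a surface glycoprotein, fell from 64.8 to 40.7 CPM (log2 difference -0.67, SE 0.17, edgeR adjusted p = 0.0297). Vimentin (Vim), Pdgfrb and Col1a2 were not called, with log2 differences of -0.08, -0.02 and -0.47 (edgeR adjusted p = 0.807, 0.980 and 0.0964). All 5 tested epithelial markers, Krt7, Krt8, Krt18, Krt19 and Cdh1, rose in both co-cultures against mono-PSCs, beside 0.839% (2W-PSCs) and 13.4% (3W-PSCs) of all genes. Of 4 tested macrophage markers, Csf1r and Mrc1 rose in 3W-PSCs against mono-PSCs and 2 were not called, beside 13.4% of all genes higher. The rise was at least 4.59-fold for Csf1r and at least 6.40-fold for Mrc1 over a floor of 3 counts per mono-PSC library. Between 2W-PSCs and 3W-PSCs neither was called. Csf1r had 2.35 (2W-PSCs) and 2.31 CPM (3W-PSCs), with a log2 difference of 0.07 (edgeR adjusted p = 0.965), and Mrc1 had 1.40 and 3.22 CPM, with a log2 difference of 1.14 (edgeR adjusted p = 0.300).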
